A study of Mus musculus with 2 samples.

Results

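The genes described here are 41 genes that type I interferon is known to induce in mouse cells, followed in T cells sorted from the spleen. They were chosen by gene symbol from a list, and each of the 41 symbols matched 1 row among the 30905 gene rows of the count matrices. In the Prmt5 CKO mice a CD4-Cre transgene deletes a floxed gene for PRMT5, an enzyme that methylates arginines of proteins, and they were set against control mice. Each group was 1 droplet single-cell library (10x Genomics 3′ chemistry, V3.1) of CD3+ cells, and the design text gives 3 mice per group. Both groups were of the C57BL/6 strain, and no age is given. The genotype field reads CD4-Cre+ PRMT5fl/fl for both samples, so the groups were taken from the sample titles, which name a CKO and a control sample. CD4-Cre acts in T cells that have passed through a stage with CD4 in the thymus, which includes nearly all CD4 and CD8 T cells and spares most γδ T cells. Cells were not mapped to mice. Each library therefore counted as 1 sample, no p-value was computed between groups, and every interval below is an exact 95% interval that covers counting error only.

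Type I interferons bind the receptor made of IFNAR1 and IFNAR2, whose kinases JAK1 and TYK2 phosphorylate STAT2. It joins IRF9 in a complex that binds the interferon-stimulated response element in the promoters of its targets. The targets include antiviral effectors, sensors of foreign nucleic acid and parts of the pathway itself, such as the transcription factor IRF7 and the brake USP18. Resting T cells carry a low level of many of these transcripts, and a minority of spleen T cells shows a strong response even in uninfected mice.

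Promoters are shown because the shared element is what ties these genes to the pathway. RefSeq promoters of the build GRCm38.p6, from 250 bases before to 50 bases after the gene start, were searched on both strands for GAAA followed by any 2 bases (NN) and a second GAAA, a core of the response element. The motif was found in 20 of the 32 members in the table (62.5%), against 1079 of 27025 genes (3.99%). The other motif searched, TTCNNNGAA, a site for STAT dimers, can overlap the first and was found in 6 of the 32 members (18.8%), against 9.55% of all genes. The first 4 sequences below hold the element and belong to Isg15, a common marker of the response, and to 3 of the 6 members that were past the threshold of difference in T cells. Oasl2, also past it, is shown as a promoter without the motif in this window. Capitals mark every base of the motif or of its reverse complement. The windows lie at chr4:156200769-156201068 on the minus strand for Isg15, and on the plus strand at chr19:34583279-34583578 for Ifit3, chr19:34607707-34608006 for Ifit3b, chr11:82951852-82952151 for Slfn5 and chr5:114896684-114896983 for Oasl2.
Isg15: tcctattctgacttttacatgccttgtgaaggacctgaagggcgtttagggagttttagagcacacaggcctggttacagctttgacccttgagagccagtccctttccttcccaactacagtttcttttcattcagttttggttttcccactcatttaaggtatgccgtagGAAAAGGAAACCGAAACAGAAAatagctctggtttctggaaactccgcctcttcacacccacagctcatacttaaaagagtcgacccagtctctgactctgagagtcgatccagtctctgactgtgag
Ifit3: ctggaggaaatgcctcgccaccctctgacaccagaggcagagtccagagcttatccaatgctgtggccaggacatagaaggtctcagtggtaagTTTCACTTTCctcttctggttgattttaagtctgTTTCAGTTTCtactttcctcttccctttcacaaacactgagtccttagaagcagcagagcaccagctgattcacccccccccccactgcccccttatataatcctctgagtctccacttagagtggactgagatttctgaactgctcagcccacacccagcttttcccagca
Ifit3b: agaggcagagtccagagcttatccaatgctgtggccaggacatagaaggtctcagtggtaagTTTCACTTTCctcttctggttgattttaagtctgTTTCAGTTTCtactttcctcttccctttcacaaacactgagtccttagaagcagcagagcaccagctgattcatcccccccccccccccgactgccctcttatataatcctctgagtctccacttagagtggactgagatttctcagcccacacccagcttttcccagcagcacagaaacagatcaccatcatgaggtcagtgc
Slfn5: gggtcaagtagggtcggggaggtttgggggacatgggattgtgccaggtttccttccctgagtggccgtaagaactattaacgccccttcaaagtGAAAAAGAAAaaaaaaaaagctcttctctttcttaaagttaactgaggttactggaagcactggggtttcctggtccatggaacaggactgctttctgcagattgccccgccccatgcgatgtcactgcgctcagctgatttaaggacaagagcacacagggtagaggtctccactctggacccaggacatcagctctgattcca
Oasl2: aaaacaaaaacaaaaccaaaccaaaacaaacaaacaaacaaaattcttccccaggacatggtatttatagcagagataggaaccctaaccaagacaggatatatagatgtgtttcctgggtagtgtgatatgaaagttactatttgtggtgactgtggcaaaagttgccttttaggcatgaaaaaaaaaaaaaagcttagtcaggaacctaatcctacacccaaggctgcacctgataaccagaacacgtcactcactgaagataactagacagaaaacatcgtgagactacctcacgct

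In Isg15, 3 overlapping copies began 78, 72 and 66 bases before the gene start. In Ifit3 the 2 copies began 156 and 122 bases before the start, and in Ifit3b 188 and 154 bases before it. The promoters of Ifit3 and Ifit3b were identical at 258 of 260 aligned bases (99.2%), so both genes carried the same pair of copies. Slfn5 held 1 copy, 155 bases before its RefSeq start, but the GENCODE annotation begins this gene at position 82951349, ahead of the window. Distances and missing motifs hold for the RefSeq starts only. In 27 of 39 member promoters, the 25 bases from the start lay in a GENCODE transcript of the gene. The motif was not found in the windows of Ifit2, Irf7, Irf9, Oasl1, Oasl2, Isg20, Ifi209, Ifi47, Slfn1, Slfn2, Xaf1 and Samd9l. Usp18, Rtp4, Oas2, Ifi27l2a, Zbp1, Mx1, Dhx58, Parp9 and Parp14 were not matched in the table.

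The libraries held 7896 barcodes with a median of 5966 unique molecular identifiers (UMIs) in CKO and 7407 barcodes with a median of 6054 UMIs in control. After filtering and removal of B-like and myeloid-like clusters, 7565 CKO and 6619 control T cells remained, with 51339837 and 46709831 UMIs. The libraries shared 11 barcodes. Levels are UMIs of a gene scaled to the same total of UMIs in the summed cells (counts per 1e6 UMIs, CPM). A gene counted as measured with at least 50 UMIs in both libraries together, and as higher or lower past 0.5 on the log2 scale, a 1.41-fold difference. The targeted gene, Prmt5, was at 4.87 CPM in CKO and 15 CPM in control T cells, a log2 ratio of -1.63 (-1.84 to -1.42). Both pools held cells of both sexes, as 2478 CKO and 1823 control T cells had a Y-linked UMI, and 3556 CKO and 3360 control T cells had a UMI of Xist, the transcript of the inactive X chromosome.

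Across all T cells, the interferon genes were slightly higher in CKO, and 6 of them were past the threshold of difference. All 41 members were measured. Of these, 35 had a log2 ratio above 0 and 6 below, with a median of 0.18, against a median of 0.05 over the 11515 measured genes, of which 60.7% were above 0. Past the threshold, 6 members were higher (14.6%), against 6.63% of all measured genes, and none was lower, against 3.04%. The 6 were Usp18, Ifit3b, Oas2, Oasl2, Ifit3 and Slfn5. The summed level of the members was 3469 CPM in CKO and 3178 CPM in control, and without Ifi27l2a, the highest member, 2390 and 2126 CPM (log2 ratio 0.17, 0.16 to 0.18). In cells with a Y-linked UMI, 9 of 41 members were higher (6.03% of all genes), and in cells with an Xist UMI 6 of 41 (6.58%). These were not all the same genes, as Ifit3 was at 0.36 (0.14 to 0.58) in cells with a Y-linked UMI, and in cells with an Xist UMI Slfn5 was at 0.49 and Oas1a was past the threshold.

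**Figure D1:**
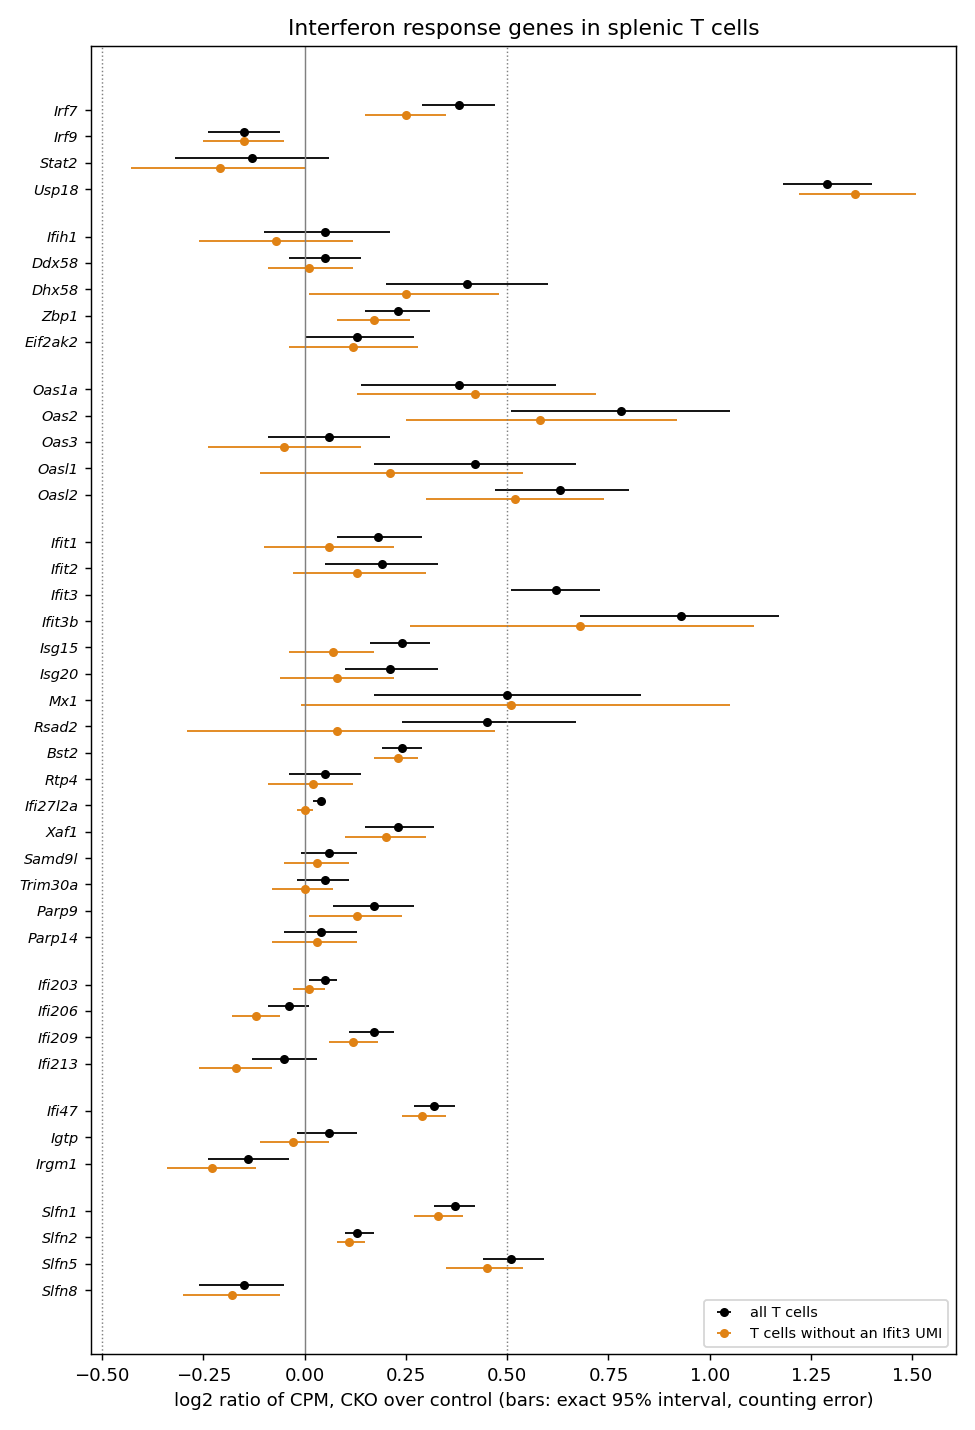
Log2 ratio of CPM, CKO over control, for each of the 41 members in all T cells (black) and in T cells without an Ifit3 UMI (orange), grouped by role, with exact 95% intervals for counting error and dotted lines at the threshold of 0.5 either way. Usp18 stands at 1.29 and 1.36, farther right than every other member, while most points lie between -0.2 and 0.5.

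Among the transducers and regulators of the pathway, Usp18 stood apart. USP18 removes the ubiquitin-like ISG15 from proteins and sits at IFNAR2, where it dampens signalling. Usp18 had 2330 UMIs, or 45.4 CPM (43.6 to 47.3), in CKO T cells, against 867 UMIs, or 18.6 CPM (17.3 to 19.8), in control T cells. The ratio was 2.45 (log2 1.29, 1.18 to 1.40), and 109 of the 11515 measured genes (0.947%) had a higher one. The gene lies at chr6:121245906-121270917 on the plus strand of mm10. The antisense gene Gm44148 overlaps it and had 64 UMIs in CKO and 74 in control. The nearest measured neighbours on either side within 500 kb were Pex26 and Slc6a13. Pex26 had a log2 ratio of -0.16, and Slc6a13 had 2.03 on 85 CKO and 19 control UMIs. Slc6a13 was also among the leading genes of a γδ-like cluster in a coarser clustering, with 49 CKO cells and 1 control cell. The part of that cluster in its ratio was not tested. The other 4 neighbours lay between -0.19 and 0.08.

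The Usp18 difference was seen in each large class of T cells. In CD8 naive-like cells the level was 48.9 CPM in CKO and 15.7 CPM in control, a 3.11-fold ratio. In CD4 naive-like cells it was 48.5 and 18.6 CPM (2.61-fold), and in Treg-like cells, the class of regulatory T cells, 65.4 and 30.7 CPM (2.13-fold). In all of these the intervals of the libraries did not overlap. CD4 memory-like cells had 35.8 CPM in CKO and 23.1 CPM in control, with an interval of the log2 ratio that reached down to 0.00. Proliferating-like cells had 17.7 and 13.4 CPM, and their interval, -0.38 to 1.22, included 0. In cells with a Y-linked UMI, Usp18 was at 44.8 CPM in CKO and 15.4 CPM in control, and in cells with an Xist UMI at 48.7 and 20.3 CPM, so the difference was present in cells of both sexes. B-like cells carried over in the sort, outside the reach of CD4-Cre, had 13 Usp18 UMIs in CKO and 3 in control (23.1 and 7.07 CPM), too few to place the log2 ratio more closely than -0.15 to 4.16.

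**Figure D2:**
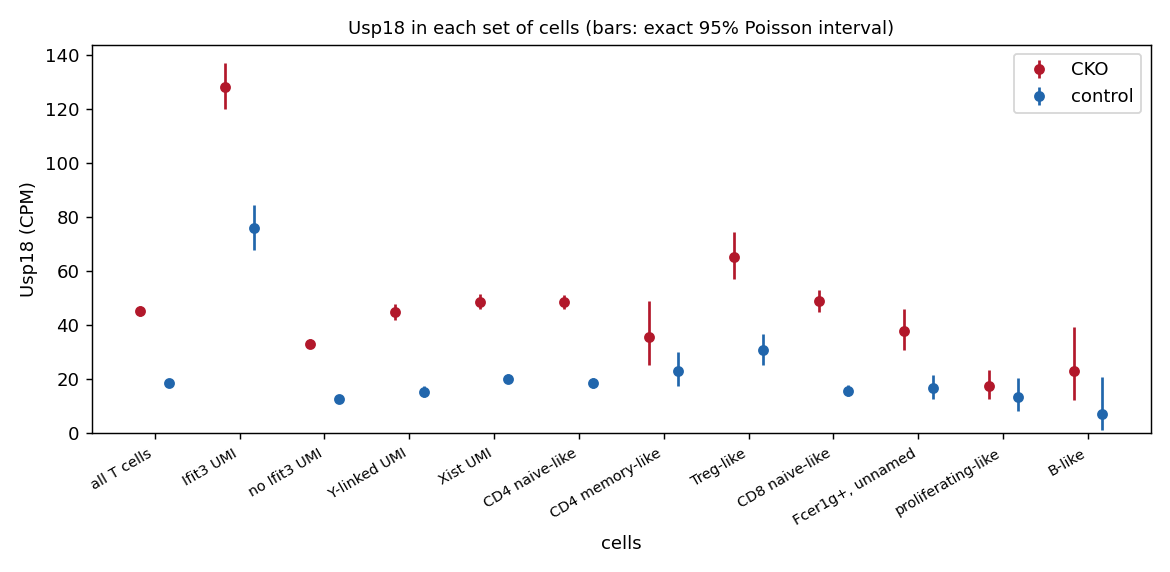
Usp18 in CPM (vertical axis) in sets of cells (horizontal axis), CKO in red and control in blue, with exact 95% Poisson intervals. The CKO value lies above the control value in every set shown, from 128 and 75.8 CPM in T cells with an Ifit3 UMI to 17.7 and 13.4 CPM in proliferating-like cells, and the intervals overlap in CD4 memory-like, proliferating-like and B-like cells.

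The other regulators had far smaller ratios than Usp18. Irf7, the transcription factor that drives interferon-α genes, was at 52.2 CPM in CKO and 40.1 CPM in control (log2 0.38, 0.29 to 0.47). Irf9, the DNA-binding part of the complex, was at 39.5 and 43.8 CPM (-0.15, -0.24 to -0.06), and Stat2, its partner, at 8.75 and 9.57 CPM (-0.13, -0.32 to 0.06). Irf9 was thus below control by more than counting error, and the interval of Stat2 included 0. Irf9 overlaps Rnf31 on the same strand and Irf7 overlaps Phrf1 on the other, so some of their reads cannot be assigned with certainty.

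The 16 IFIT genes and other antiviral effectors all had log2 ratios above 0, between 0.04 and 0.93 with a median of 0.20, and 2 were past the threshold. IFIT proteins bind foreign RNA and block its translation. Ifit3b had 424 UMIs (8.26 CPM) in CKO and 203 UMIs (4.35 CPM) in control, a log2 ratio of 0.93 (0.68 to 1.17). Ifit3 had 1794 UMIs (34.9 CPM) in CKO and 1063 UMIs (22.8 CPM) in control, 0.62 (0.51 to 0.73). The longest transcripts of these neighbours on chromosome 19 are identical over 98.0% of 1697 aligned bases. In their last 400 bases, the end that 3′ chemistry reads, only 97 bases aligned, at 93.8% identity. How reads split between these genes was not tested and is uncertain. Summed, they were at 43.2 CPM in CKO and 27.1 CPM in control (0.67, 0.57 to 0.77), and the summed log2 ratio was 0.47 in cells with a Y-linked UMI and 0.60 in cells with an Xist UMI. Their relatives were closer to control, with Ifit1 at 32.7 and 28.9 CPM (0.18) and Ifit2 at 17.3 and 15.2 CPM (0.19).

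The other effectors were closer to control, and none of them was past the threshold. Mx1, which encodes a dynamin-like GTPase and is known to be defective in C57BL/6 mice, was the lowest member, at 3.90 CPM in CKO and 2.76 CPM in control (log2 0.50, 0.17 to 0.83), just short of the threshold. Rsad2, which encodes the antiviral enzyme viperin, was at 9.04 and 6.59 CPM (0.45, 0.24 to 0.67). Isg15, the ubiquitin-like modifier that USP18 removes, was at 64.3 and 54.5 CPM (0.24, 0.16 to 0.31). Bst2, the tetherin that holds budding virus at the cell surface, was at 153 and 129 CPM (0.24, 0.19 to 0.29). Ifi27l2a was the highest member, at 1079 CPM in CKO and 1052 CPM in control (0.04, 0.02 to 0.05). The exonuclease gene Isg20 had a log2 ratio of 0.21 and Xaf1, whose product binds the apoptosis inhibitor XIAP, 0.23. The ADP-ribosylation genes Parp9 and Parp14, the ubiquitin ligase gene Trim30a, Rtp4 and the growth-restraining gene Samd9l lay between 0.04 and 0.17.

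Active enzymes of the oligoadenylate synthetase family make the messenger that activates RNase L. All 5 members of this family, grouped here by family and not by enzyme activity, were above 0, with a median log2 ratio of 0.42. Oas2 had 332 UMIs (6.47 CPM) in CKO and 176 UMIs (3.77 CPM) in control, a log2 ratio of 0.78 (0.51 to 1.05). Oasl2 had 778 UMIs (15.2 CPM) in CKO and 456 UMIs (9.76 CPM) in control, 0.63 (0.47 to 0.80). Oasl1, which in mice represses translation of Irf7, was at 6.53 and 4.88 CPM (0.42), Oas1a at 6.78 and 5.22 CPM (0.38), and Oas3 at 15 and 14.3 CPM (0.06). The 5 sensors had lower ratios and none was past the threshold. Dhx58 (LGP2), which modulates the RNA sensors RIG-I and MDA5, was at 10.2 CPM in CKO and 7.73 CPM in control (0.40, 0.20 to 0.60). Zbp1, a sensor of Z-form nucleic acid, was at 58.8 and 50.2 CPM (0.23), whereas Ifih1 (MDA5) and Ddx58 (RIG-I) were both at 0.05 and Eif2ak2, the RNA-activated kinase PKR, at 0.13.

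The families that are better known for interferon-γ or for T cell growth differed among themselves. Of the 4 Schlafen genes, Slfn5 was past the threshold, at 66.7 CPM in CKO and 46.7 CPM in control (log2 0.51, 0.44 to 0.59). Slfn1 was at 145 and 112 CPM (0.37), Slfn2, which is known to keep mouse T cells quiescent, with 15389 and 12771 UMIs (0.13), and Slfn8 at 26.9 and 29.9 CPM (-0.15, -0.26 to -0.05). Among the immunity-related GTPases, Ifi47 was at 144 and 116 CPM (0.32, 0.27 to 0.37), Igtp at 59.3 and 56.9 CPM (0.06) and Irgm1 at 33.7 and 37.1 CPM (-0.14, -0.24 to -0.04). The 4 members of the IFI200 family of DNA-binding proteins lay between -0.05 and 0.17, from Ifi213 to Ifi209. The longest transcripts of Ifi206 and Ifi213 are identical over 92.9% of 1359 aligned bases. In their last 400 bases only 28 aligned, at 71.4% identity. Slfn5, Dhx58, Slfn2, Oasl1, Eif2ak2, Parp9 and Rtp4 each overlap a gene on the opposite strand. Ifi203 overlaps Mndal, Ifi47 overlaps Olfr56 and Igtp overlaps Irgm2 on the same strand, so the counts of all these genes are less certain.

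T cells were divided into types by clustering without interferon-induced genes, so that the members did not define the types. CD8 naive-like cells (1460 CKO and 1791 control cells) had the most members past the threshold with this clustering. There 14 of 41 members were higher, against 7.29% of all measured genes, and none lower, against 3.42%, and the median log2 ratio was 0.36, against 0.06 over all genes. Oas2 was at 6.5 CPM in CKO and 2.72 CPM in control (log2 1.26, 0.66 to 1.87). Rsad2 was at 11.8 and 5.29 CPM (1.16, 0.73 to 1.59), and Oasl2 at 16.6 and 8.01 CPM (1.05, 0.70 to 1.40). Isg20, Oas1a, Slfn5, Dhx58, Oasl1, Mx1 and Ifit3b were among the others past the threshold in this class. With cells gated by Cd4, Cd8a, Cd8b1 and Foxp3 UMIs in place of clusters, 7 members were higher. With interferon genes kept in the clustering, 4 were. That clustering put some responding cells into a cluster of 360 CKO and 189 control cells, 63.0% of them with an Ifit3 UMI. Its large CD8 naive-like cluster still had 9.6% of cells with an Ifit3 UMI, against 9.9% when interferon genes were left out. With interferon genes kept, CD4 naive-like cells also had 4 members higher, and the Fcer1g cluster, an unnamed cluster, had 22. Without interferon genes in the clustering, 18.5% of all genes were higher in the Fcer1g cluster. Counts with gates or with interferon genes kept, here and below, stand without the share of all genes. They are therefore not read as results about the members.

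In CD4 naive-like cells (4577 CKO and 3204 control), 8 of 41 members were higher, against 5.38% of all measured genes, none was lower, against 2.89%, and the median log2 ratio was 0.17. The count was 5 with gates and 4 with interferon genes kept in the clustering. Ifit3 was at 37.6 CPM in CKO and 21.6 CPM in control (log2 0.80, 0.63 to 0.97), and Slfn5 at 86.0 and 59.1 CPM (0.54, 0.44 to 0.65). Isg15 was at 54.5 and 50.8 CPM (0.10, -0.02 to 0.22), against 63.7 and 41.2 CPM (0.63, 0.47 to 0.79) in CD8 naive-like cells. Whether the CD4 and CD8 differences differ from each other was not tested, since each rests on the same pair of libraries. A cluster of CD4 naive-like cells led by Pdlim4 and Plat held 1284 CKO and 50 control cells. Without it 9 of 41 members were higher, against 4.52% of all genes. The log2 ratio of Usp18 was 1.14 (0.95 to 1.33) without this cluster and 1.38 with it.

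Treg-like cells (484 CKO and 527 control) had 5 of 38 measured members higher, against 6.01% of all genes, and 2 with interferon genes kept in the clustering. Among the 5, Rsad2 was at 13.8 CPM in CKO and 5.70 CPM in control (log2 1.28, 0.51 to 2.09) and Ifit3 at 43.8 and 22 CPM (1.0, 0.60 to 1.40). In CD4 memory-like cells (140 CKO and 358 control), 8 of 34 were higher, against 10.2%, and 1 was lower, Slfn8, against 12.3%. With a minimum of 200 UMIs, 2 of 17 were higher. The class differed in its make-up, since 62 and 51 of its CKO cells lay in clusters with 60 and 11 control cells, and 151, 81 and 55 of its control cells in clusters with 9, 11 and 7 CKO cells. Isg15 was at 153 CPM in CKO and 78.9 CPM in control there (0.96, 0.65 to 1.27), and Bst2 at 236 and 144 CPM (0.71, 0.47 to 0.95). Proliferating-like cells (149 CKO and 74 control) had no member past the threshold among 30 measured, against 8.40% of all genes, and Isg15 there was at 55.7 CPM in CKO and 74.2 CPM in control (-0.41, -0.78 to -0.05). An unnamed cluster with Fcer1g had 12 of 37 members higher, but 18.5% of all its genes were higher and their median log2 ratio was 0.24, with median depths of 7172 UMIs in CKO and 9417 UMIs in control. The remaining types were small, such as γδ-like cells with 102 CKO and 17 control cells, and their counts of members are not read.

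The level of the most abundant member, Ifi27l2a, varied between types. It was at 2878 CPM in CKO and 2662 CPM in control CD4 memory-like cells and at 2364 and 2318 CPM in Treg-like cells. It was at 974 and 922 CPM in CD4 naive-like cells and at 752 and 721 CPM in CD8 naive-like cells. The order of these 4 types was the same in both libraries, and neighbours in it lay farther apart than CKO and control within each of the 4. This did not hold in the Fcer1g cluster, with 799 CPM in CKO and 516 CPM in control, or in NKT-like cells, with 1537 and 974 CPM.

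**Figure D3:**
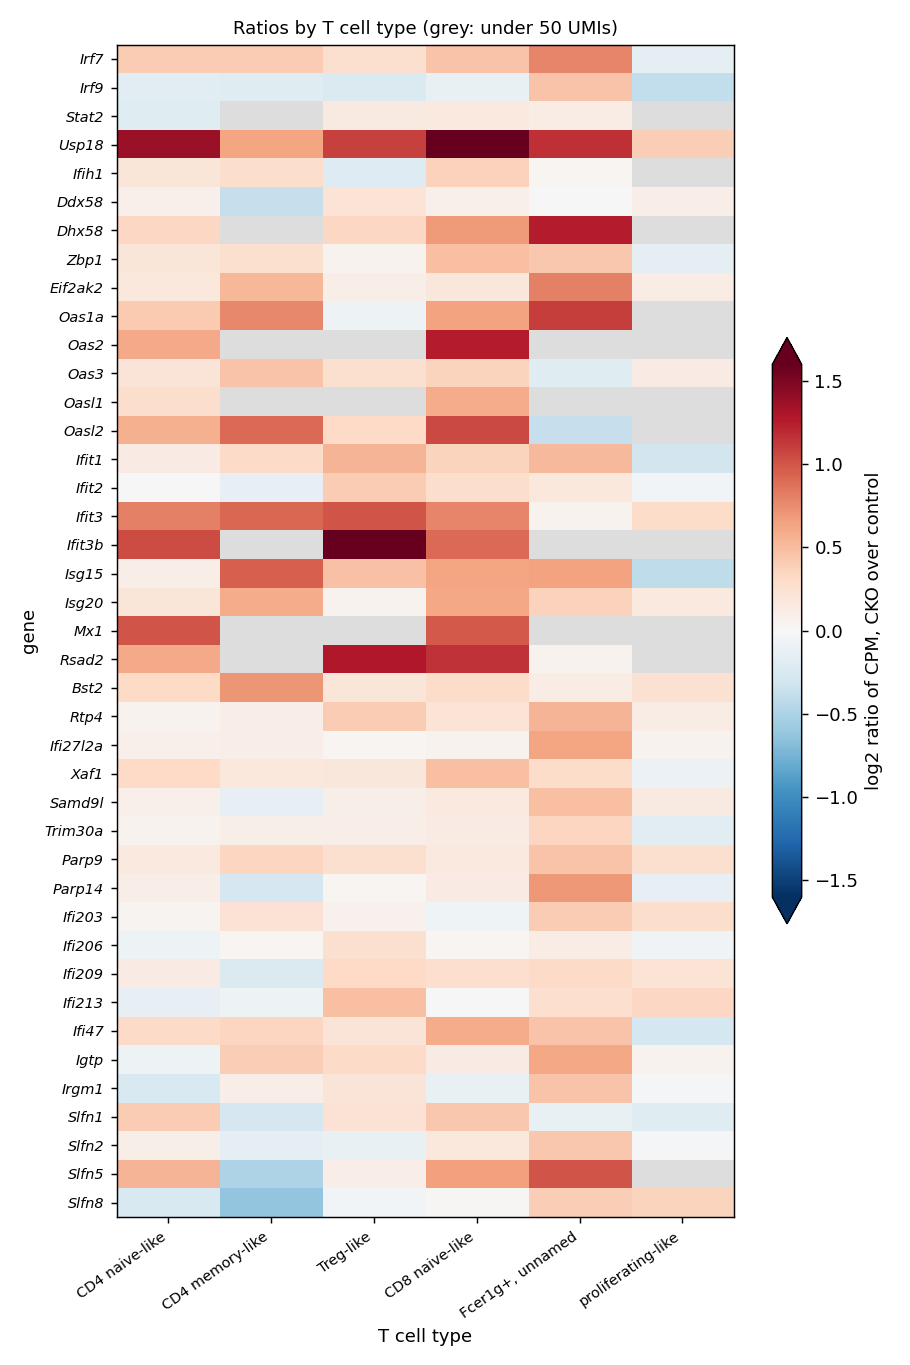
Log2 ratio of CPM, CKO over control, as colour (red higher in CKO, blue lower) for the 41 members (rows) in 6 types of T cells (columns), with grey for members under 50 UMIs in both libraries together. Usp18 is red in every column, and the CD8 naive-like column holds 14 members past 0.5 and the proliferating-like column none.

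Because a few responding cells can set the summed level, T cells were divided by Ifit3. Each cell was thinned to 2000 UMIs, so that depth could not set how often a UMI was seen. An Ifit3 UMI was then present in 397 of 7512 CKO T cells (5.28%, 4.79 to 5.82) and in 200 of 6594 control T cells (3.03%, 2.63 to 3.48), a ratio of 1.74 (1.47 to 2.08). Without thinning the shares were 11.9% and 7.69%, at median depths of 6049 and 6289 UMIs. The higher share in CKO was seen in CD4 naive-like cells (5.45% and 2.63%) and CD8 naive-like cells (5.36% and 3.30%), with intervals that did not overlap. The CD4 share includes the cluster led by Pdlim4 and Plat (1284 CKO and 50 control cells). In that cluster 13.7% of the cells of both libraries had an Ifit3 UMI without thinning. The other large CD4 naive-like clusters had 6.5%, 8.6% and 11.9%. The CD4 share without this cluster was not computed. Cells with an Xist UMI gave 5.93% in CKO and 3.28% in control, likewise apart, and cells with a Y-linked UMI 4.66% and 3.14%, with overlapping intervals and a ratio of 1.48 (1.07 to 2.08). In Treg-like cells the shares were 5.0% and 3.28%, and the interval of the ratio, 0.785 to 3.02, included 1. No cell type in the sort is known to lack Ifit3, so a background from free RNA was not set. Among the types with low shares, γδ-like cells had 1 of 101 CKO cells and 0 of 17 control cells, which allows a share of up to 17.6% in control, and an unnamed cluster with Tnfrsf9 had 1 of 82 CKO cells and 0 of 47 control cells, which allows up to 6.38%.

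**Figure D4:**
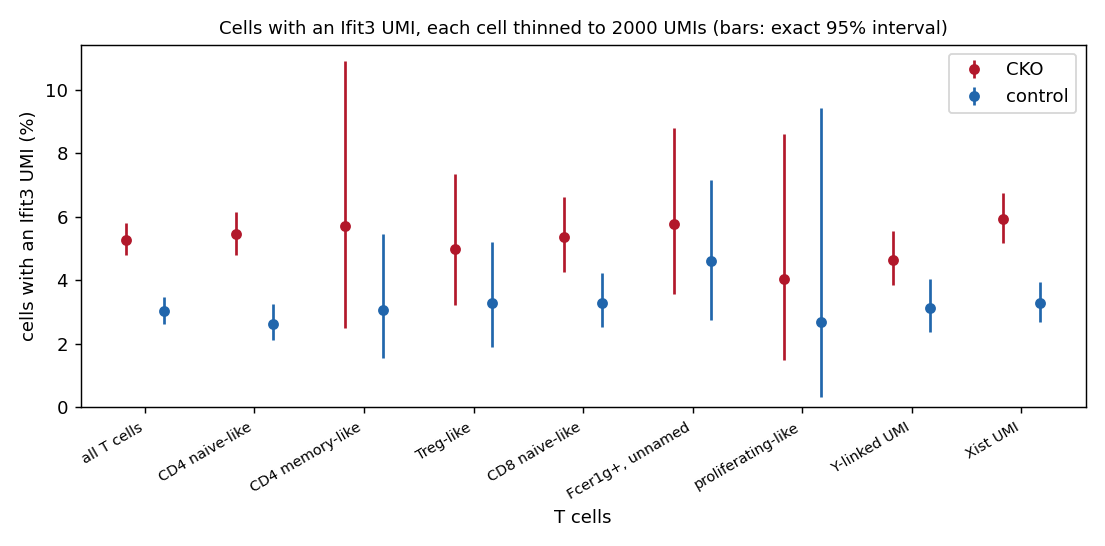
Percentage of T cells with an Ifit3 UMI after thinning each cell to 2000 UMIs, CKO in red and control in blue, with exact 95% binomial intervals. The CKO share is above the control share in all sets shown, and the intervals are apart in all T cells (5.28% and 3.03%), CD4 naive-like, CD8 naive-like and Xist UMI cells.

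The excess depended on the gene used to define a responding cell. With a UMI of Isg15 in place of Ifit3, the shares were 8.88% in CKO and 7.66% in control, a ratio of 1.16. With a UMI of any of Ifit1, Ifit3, Ifit3b and Rsad2 they were 10.1% and 7.01%, a ratio of 1.44. A measure without Ifit3, Ifit3b and Usp18 counted the other 38 members in each thinned cell. At least 10 of these were detected in 398 CKO cells (5.30%, 4.80 to 5.83) and in 244 control cells (3.70%, 3.26 to 4.18). Just under this limit, with 1 member fewer, lay 166 CKO and 105 control cells. The ratio of the shares was 1.43 (1.22 to 1.69), and with limits of 8, 12 and 15 members it was 1.33, 1.48 and 1.51. In CD4 naive-like cells the ratio was 1.40 (1.11 to 1.77) at 10 members and 1.27 (0.939 to 1.74) at 12. In cells with a Y-linked UMI it was 1.81 (1.29 to 2.57) at 10 and 1.45 (0.909 to 2.35) at 12. At 10 members the shares in CD8 naive-like cells were 5.98% (4.81 to 7.32) and 2.57% (1.89 to 3.41). In Treg-like cells they were 7.08% and 5.79%, with overlapping intervals.

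The number of interferon genes detected in a cell with an Ifit3 UMI was close in CKO and control. The number of the other 39 members detected per thinned cell with an Ifit3 UMI averaged 9.59 in CKO and 9.64 in control, with a median of 8 in both. Cells without an Ifit3 UMI averaged 4.25 in CKO and 3.96 in control. At full depth, 902 CKO and 509 control T cells had an Ifit3 UMI, and CD4 naive-like cells made up 60.5% of them in CKO and 38.7% in control, against 60.5% and 48.4% of all T cells. Ifit3 chose these cells, so its own level and that of its near copy Ifit3b in them are not read as results. Of the other 39 members, 2 were higher in CKO, against 6.50% of all measured genes, and none was lower, against 4.38%. These were Usp18, at 128 CPM in CKO and 75.8 CPM in control (log2 0.76, 0.57 to 0.95), and Oas2, at 20.7 and 12.4 CPM (0.75, 0.28 to 1.24). Isg15 was at 261 CPM in CKO and 266 CPM in control (-0.03, -0.14 to 0.08), and Ifit1 at 151 and 173 CPM (-0.19, -0.33 to -0.05). Rtp4 (-0.24), Irf9 (-0.29) and Slfn8 (-0.35) were also lower in CKO by more than counting error, and Irf7 (0.31), Slfn5 (0.30) and Slfn1 (0.27) higher. Prmt5 in these cells had 49 CKO and 57 control UMIs, a log2 ratio of -0.87 (-1.45 to -0.29).

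In the 6663 CKO and 6110 control T cells without an Ifit3 UMI, most members lay close to all other genes. The median log2 ratio was 0.10, against 0.06 over all measured genes, and 5 of 40 measured members were higher, against 6.44%, and none lower, against 2.65%. Usp18 was at 33.1 CPM in CKO and 12.9 CPM in control, a log2 ratio of 1.36 (1.22 to 1.51). Oas2 was at 4.36 and 2.92 CPM (0.58), Oasl2 at 10.0 and 6.99 CPM (0.52) and Mx1 at 1.74 and 1.22 CPM (0.51, -0.01 to 1.05). Ifit3b, at 2.86 and 1.79 CPM (0.68), is also among the 5. It is a near copy of Ifit3, which chose these cells, so its level here is not read as a result. Under 5 of the 8 alternatives tried, the count of members past the threshold was 3. Isg15 was at 35.3 CPM in CKO and 33.6 CPM in control (0.07, -0.04 to 0.17), and Ifi27l2a at 970 and 972 CPM. Slfn5, at 0.45 (0.35 to 0.54), was just short of the threshold, and Slfn1 and Ifi47 were at 0.33 and 0.29. Lower than control by more than counting error were Irgm1 (-0.23, -0.34 to -0.12), Slfn8 (-0.18, -0.30 to -0.06), Ifi213 (-0.17, -0.26 to -0.08), Irf9 (-0.15, -0.25 to -0.05) and Ifi206 (-0.12, -0.18 to -0.06). A cell without an Ifit3 UMI can still be a responding cell at these depths. In the 5099 CKO and 4742 control cells that also lacked UMIs of Ifit1, Ifit3b, Rsad2 and Isg15, Usp18, Oasl2 and Oas2 were higher among 36 measured members, against 6.79% of all genes, and Usp18 was at 29.3 CPM in CKO and 10.3 CPM in control.

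The same cells were followed by type, with no test of differences between types. In CD8 naive-like cells without an Ifit3 UMI, 7 of 38 measured members were higher, against 7.17% of all genes, with a median log2 ratio of 0.13. In CD4 naive-like cells without one, 2 of 39 were higher, against 5.05%, with a median of 0.07. The 2 were Usp18 and Ifit3b, and Ifit3b (log2 1.23) is again not read as a result. In Treg-like cells 1 of 34 was higher, against 6.10%, also with a median of 0.07. Usp18 was among those higher in each, at 33.9 CPM in CKO and 11 CPM in control CD8 naive-like cells, 36.2 and 12.6 CPM in CD4 naive-like cells, and 48.2 and 26.3 CPM in Treg-like cells. In CD4 memory-like cells without an Ifit3 UMI it had 13 UMIs in CKO and 31 in control, or 13.7 and 14.6 CPM (log2 -0.10, -1.15 to 0.88).

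The members differed widely in how far they were concentrated in the Ifit3 cells, which held 12.9% of all T cell UMIs in CKO and 9.0% in control. Over the 40 members other than Ifit3, the share of a member's UMIs in these cells ranged between 16.6% and 73.1% in CKO (median 27.9%) and between 11.7% and 63.6% in control (median 21.4%). The most concentrated was Rsad2, with 73.1% in CKO and 63.6% in control. Mx1, Ifit1 and Isg15 followed among the members other than Ifit3b, whose share its likeness to Ifit3 may partly fix. The least concentrated were Slfn2, with 16.6% and 11.7%, and Irf9, with 16.9% and 13.1%. The share was higher in CKO for 39 of the 40 members, as was the share of all UMIs in these cells. Set against the share of all UMIs, the enrichment in the Ifit3 cells was higher in CKO for 3 of the 40 members, with medians of 2.16-fold in CKO and 2.37-fold in control, and for 6 of 40 with cells thinned to 2000 UMIs. Usp18 had 36.4% of its UMIs in the Ifit3 cells in CKO and 36.8% in control, a 2.83-fold and a 4.09-fold enrichment. With thinned cells its shares were 22% and 21.3%, and Eif2ak2, with 14.8% in CKO and 14.9% in control, was the 1 member without a higher share in CKO. The order of the members is a description, since all shares of a library come from the same cells.

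**Figure D5:**
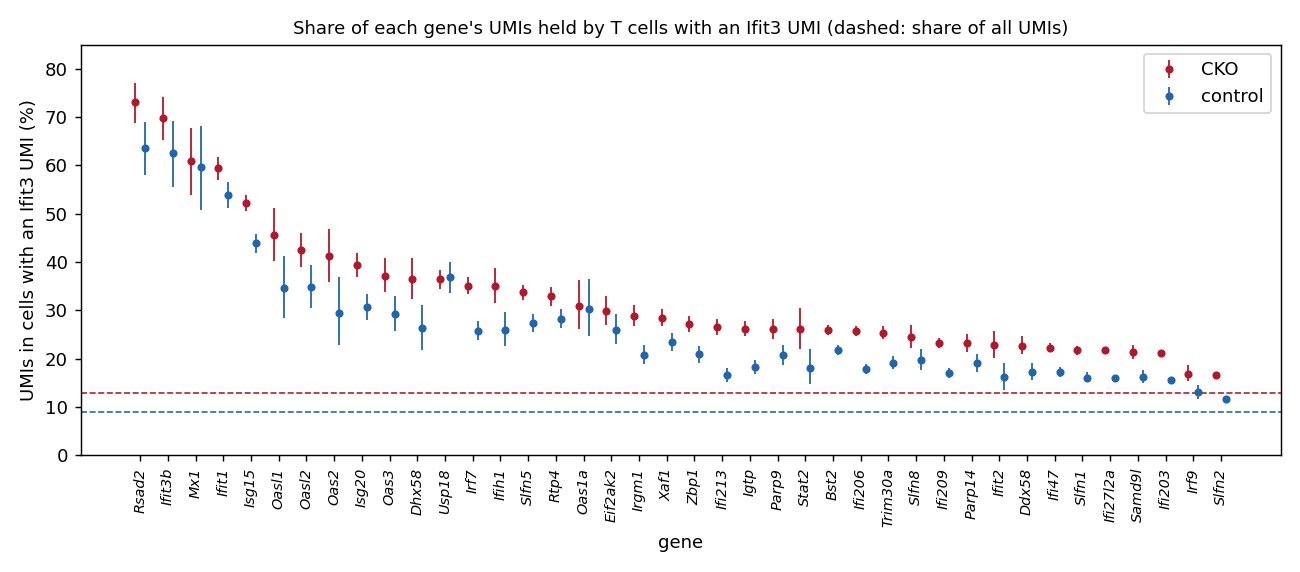
Percentage of each member's UMIs held by T cells with an Ifit3 UMI (vertical axis) for the 40 members other than Ifit3 (horizontal axis, ordered by CKO), CKO in red and control in blue, with exact 95% binomial intervals and dashed lines for the share of all UMIs. Every member lies above its dashed line, Rsad2 is highest at 73.1% in CKO and 63.6% in control, and the CKO points lie above the control points except for Usp18, an exception not seen with thinned cells.

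Upstream of these genes, the shares of the pathway past the threshold were near the background of all genes. Of 9 interferon genes, Ifnb1, Ifna1, Ifna2, Ifna4, Ifna5, Ifnl2 and Ifnl3 had no UMI in T cells of either library and Ifnk had 0 in CKO and 1 in control, while Ifng, the type II interferon, was at 13.2 CPM in CKO and 13.0 CPM in control. Interferon made by cells outside the sort cannot be seen in these data. Of 16 measured receptors, kinases and factors, 1 was higher (6.25%, against 6.63% of all measured genes) and 1 lower (against 3.04%). Their median log2 ratio was 0.00. Irf5 was higher (2.36 CPM in CKO and 1.63 CPM in control, log2 0.53), and Irf4, a factor of activated T cells, was lower (5.73 and 8.86 CPM, -0.63). Ifngr1, a chain of the interferon-γ receptor, was at 155 and 131 CPM (0.25) and the transcription factor gene Irf1 was lower by less than the threshold (-0.25, -0.31 to -0.19). Of 11 brakes on the pathway, 1 was past the threshold (9.09%), the cytokine-signalling suppressor Socs3, at 47.3 and 33.4 CPM (0.50, 0.41 to 0.59). The histone methyltransferase gene Setdb1 was at 20.3 and 15.8 CPM (0.36), and the phosphatase genes Ptpn11 and Ptpn6 at -0.21 and 0.19. Among 14 measured genes of nucleic acid sensing, 1 was higher (7.14%), Tlr7, the receptor for single-stranded RNA, at 4.05 and 2.38 CPM (0.77, 0.43 to 1.12), and Tmem173 (STING), Mavs and Samhd1 were at 0.25, -0.23 and 0.24.

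Outside the 41, the lists of interferon-induced genes had medians near that of all genes, 0.05, apart from the Ifitm family. Of 19 measured guanylate-binding and type II genes, with a median log2 ratio of 0.06, 3 were higher (15.8%, against 6.63% of all measured genes). None was lower, against 3.04%. The 3 higher genes encode guanylate-binding proteins. Gbp6 was at 14.6 CPM in CKO and 7.43 CPM in control (0.97, 0.79 to 1.16), Gbp4 at 75.6 and 47.2 CPM (0.68) and Gbp9 at 40.6 and 28.1 CPM (0.53). The GTPase gene Iigp1 was at 15.7 and 11.5 CPM (0.45). Of 42 other measured interferon-induced genes, with a median of 0.05, 5 were higher (11.9%, against 6.63%) and 1 lower (against 3.04%). Among these, Ifi44 was at 2.94 and 1.52 CPM (0.95), Phf11d at 1.52 and 0.814 CPM (0.90) and Phf11a at 9.31 and 5.16 CPM (0.85). Ly6c2, which also marks memory CD8 cells, was lower, at 116 and 206 CPM (-0.83, -0.88 to -0.78). The Ifitm genes, membrane proteins that block entry of virus, had 3 of 4 measured genes higher. Ifitm1 had 1203 UMIs in CKO and 4 in control (log2 8.10, 6.74 to 9.97), Ifitm2 and Ifitm3 were at 2.07 and 2.05, and Ifitm10 at -0.50 was lower.

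Other cells that could have been carried over were followed beside these results. Plasmacytoid dendritic cells, the main makers of type I interferon, also express Irf7 and Bst2. In T cells their marker Siglech had 0 UMIs in CKO and 1 in control, and Klk1 had 0 in both. The 6 markers summed to 42.2 CPM in CKO and 43.9 CPM in control, mostly from Ccr9, which T cells also express. The 5 myeloid markers summed to 12.1 CPM in CKO and 9.74 CPM in control, the 3 erythroid markers to 8.24 and 1.13 CPM, the 3 platelet markers to 1.97 and 0.514 CPM and the 4 neutrophil markers to 0.779 and 0.150 CPM. Their part in the ratios of the members was not tested.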

How the data were processed

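Values in the deposited matrices are raw UMI counts (whole numbers), one matrix per library. Cell Ranger 3.1.0 produced them, per the file headers and the submitters' processing notes, which also name CASAVA 1.8, Seurat 2.3.4 and the build mm10 without a role. Barcodes with under 500 detected genes or with 10% or more mitochondrial UMIs were left out, 2.99% in CKO and 9.38% in control. Scrublet in scanpy 1.11.5 called 0 doublets in either library, so it did not work and doublets remain. Cells of the 2 libraries were clustered jointly, using 2000 variable genes and leaving out interferon-induced genes (30 components, 15 neighbours, Leiden resolution 1, seed 1). Clusters were named from single markers, such as Cd8b1 in at least 60% of cells for CD8, Cd4 in 30%, Foxp3 in 40% and Cd44 in 25% for CD4 memory, with thresholds set after the clusters had been seen. Names were rebuilt here and may differ from the authors'. A few clusters stayed unnamed.

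UMIs were summed per library and class and scaled to CPM. CPM intervals are exact Poisson, intervals of shares are Clopper-Pearson and intervals of ratios are exact conditional binomial, at 95%. Intervals of ratios recovered known ratios in data simulated with the same Poisson counts that they assume. The simulation had no clumping of UMIs in a few cells, so it cannot show whether the intervals are wide enough for members concentrated in such cells. An upper limit for a share of 0 is 3 counts of the total. Since each group is 1 library, with its 3 mice pooled, differences between mice are not measured. The members and the lists of other genes were chosen with earlier results of these data known, and the count of members detected per cell was added after the data had been seen. All 41 members are named; of each other list, up to 4 genes with the largest absolute log2 ratio among those with at least 100 UMIs. Gene positions are from GENCODE vM21 on mm10, promoters from RefSeq on GRCm38.p6. Alternatives covered the filters on cells and genes, the scaling, doublet scores, sex, thinning, the clustering and the definition of a responding cell.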

Additional observations from a re-analysis of the deposited data

Results flagged for a closer look

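Ifi27l2a was higher in CKO in cells outside the T cell comparisons. In the myeloid-like cells carried over in the sort it had 332 UMIs in 23 CKO cells and 160 UMIs in 26 control cells, or 2520 and 1153 CPM, a log2 ratio of 1.13 (0.85 to 1.41), whereas the ratio in all T cells was 0.04. It was noted because it is a signal in cells that the comparisons of T cells do not use. Of the 681 genes measured in these cells, 13.1% were higher, and the median depth per cell was 5524 UMIs in CKO and 2396 UMIs in control. With so few cells, and the mice pooled, neither the mouse of origin nor the mix of myeloid cells behind the difference was tested.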

How the results depend on the processing

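No paired analysis was possible because each group is 1 library and no result comes from a test over replicates. The count of 6 members higher in all T cells stayed within 1.5-fold under every alternative (9 in cells with a Y-linked UMI), though not always with the same members. Usp18 ranged from 1.18 to 1.54 on the log2 scale. Of the 41 log2 ratios in all T cells, 15 left their first interval with the stricter cell filter. In cells with a Y-linked UMI 15 did, and with cells thinned to 2000 UMIs 11 did. No value changed its direction past the threshold. Of the other values, the count of 5 members higher in cells without an Ifit3 UMI was 3 with the stricter cell filter, without mitochondrial and ribosomal genes in the total, with centred ratios, in cells with an Xist UMI, and in cells without Ifit1, Ifit3, Ifit3b, Rsad2 and Isg15 UMIs. With interferon genes kept in the clustering, 4 members were higher in CD4 naive-like cells, 2 in Treg-like cells, 4 in CD8 naive-like cells and 22 in the Fcer1g cluster. Gates gave 5 in CD4 and 7 in CD8 naive-like cells. A minimum of 200 UMIs gave 2 in CD4 memory-like cells, 3 in Treg-like cells, 9 in CD8 naive-like cells, 7 in the Fcer1g cluster and 0 in the mixed cluster, with fewer members measured. The stricter filter gave 3 in Treg-like and 2 in proliferating-like cells. These counts by type stand without the share of all genes under the same setting, so they are not read as results about the members. The ratio of shares of 1.74 was 1.16 with Isg15 and 1.44 with any of 4 genes. Centred ratios left 0 receptors, kinases and factors and 0 brakes higher, and a minimum of 200 UMIs left 0 of the receptors, kinases and factors. Causes were not tested. With 1 library per group, no interval covers differences between mice, and members under about 50 UMIs in a class could not be compared.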
